A study of Oryctolagus cuniculus with 4 samples.

Results

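The Notch genes examined here were 4 receptors (NOTCH1 to NOTCH4), 3 ligands (JAG1, JAG2 and DLL4) and 3 targets (HES1, HEY1 and HEYL), found by gene symbol. Of these 10 genes, 7 had a row among the 13913 genes of the table. NOTCH1, NOTCH3 and JAG2 had no row under their symbol and were not analysed here, while 3706 rows carried only an identifier and could not be named. All 7 genes passed the filter on low values, which left 9348 genes for the test.

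Relative expression came from single-cell RNA sequencing (droplet method of 10x Genomics) of rabbit ear hypertrophic scar (HS), a raised scar with excess collagen. The scars were made by excising skin and perichondrium on the ventral ear of wild-type female rabbits, whose strain and age at harvest are not given in the labels. The HS group (2 libraries) was left untreated, and the drug-loaded MNs group (2 libraries) received weekly patches of microneedles carrying a prodrug of a 5-fluorouracil derivative for 3 weeks. The ventral epidermis and dermis were dissociated and each library came from 1 tissue. Libraries with drug-free microneedles were not analysed here, so needle insertion and drug cannot be told apart.

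Notch receptors are membrane proteins that are cut when they bind a Jagged or Delta ligand on a neighbouring cell. The released intracellular part enters the nucleus, joins the DNA-binding protein RBPJ and switches on repressors of the HES and HEY families. In skin the pathway is known for its part in the commitment of keratinocytes to differentiation, and in vessels for artery formation, sprouting and the upkeep of mural cells.

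HES1, the target with the smallest unadjusted p, was lower in drug-loaded MNs, and NOTCH4, a receptor mainly of endothelial cells, was higher, each by about the same ratio of means in opposite directions. HEY1 was slightly lower and HEYL higher, with no overlap between the groups. The ligands JAG1 and DLL4 and the receptor NOTCH2 overlapped between the groups. In limma none of the 7 genes reached an adjusted p of 0.05, which 0.0428% of all tested genes did. At an unadjusted p under 0.05, 1 of the 7 was higher (NOTCH4) and 1 lower (HES1), against 7.26% and 1.39% of all tested genes (5.29% and 2.97% under median ratio scaling). The groups did not overlap, with drug-loaded MNs higher, in 2 of the 7 (NOTCH4 and HEYL), against 26.6% of all tested genes. They did not overlap, with drug-loaded MNs lower, in 2 of the 7 (HES1 and HEY1), against 11.2%. The median log2 fold change was -0.13 for the 7 genes against 0.12 over all tested genes, so a gene that kept pace with the rest stood slightly above 0.

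Values below are parts per 1000000 of a library's total, and log2 fold changes are drug-loaded MNs minus HS on the log2(value + 1) scale. Each value combines the cells of a library, in a way not given in the sources used here. Fewer cells of a type and less RNA per cell therefore cannot be told apart. The depth was unknown, since all columns had been scaled to the same total. The share of mitochondrially encoded genes was 2.75% and 2.80% in HS against 4.37% and 4.58% in drug-loaded MNs. HS replicate 1 was the lowest of the 4 libraries in 44.5% of tested genes. Keratin and collagen genes (KRT5, KRT10, COL1A2) were abundant in every library.

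**Figure D1:**
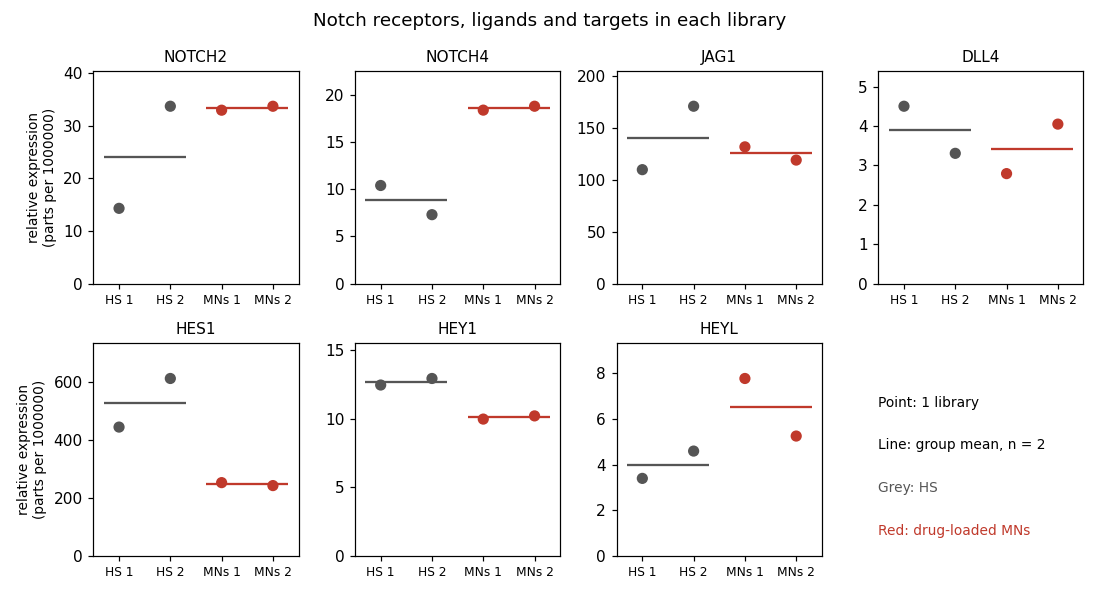
Relative expression (parts per 1000000 of the library total, y axis from 0) of the 7 Notch genes in each of the 4 libraries, with lines at the group means (n = 2). The groups lie apart in NOTCH4, HES1, HEY1 and HEYL and overlap in NOTCH2, JAG1 and DLL4.

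Among the receptors, NOTCH4 (ENSOCUG00000016445) stood at 10.4 and 7.29 units in the HS libraries and at 18.4 and 18.8 in the drug-loaded MNs libraries. Both treated libraries lay above both untreated ones and close to each other. The group means were 8.83 ± 2.18 and 18.6 ± 0.292 (SD, n = 2 each), a ratio of 2.1. The log2 fold change was 1.01 (SE 0.28, 95% interval 0.36 to 1.66), with a limma adjusted p of 0.352. By unadjusted p (0.00785 in limma) it ranked 176 among the genes with a positive fold change. With 1 library left out the log2 fold change ran from 0.78 to 1.24.

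NOTCH4 was set beside markers of the cells that carry it. Of the 10 blood endothelial markers listed, 7 were in the table, and their summed level was 206 and 213 units in HS, against 161 and 216 in drug-loaded MNs. The list thus overlapped between the groups, with 4 of its 7 genes higher and 3 lower and a median log2 fold change of 0.08 (-0.05 under median ratio scaling). Its members did not move alike. CDH5, the endothelial cadherin, stood at 0.92 on the log2 scale (limma adjusted p 0.445) and PECAM1 at 0.54, while VWF, a clotting protein stored in endothelial cells and the highest gene of the list, stood at -0.50. NOTCH4 amounted to 5.03% and 3.43% of the list's sum in HS, against 11.4% and 8.69% in drug-loaded MNs. The log2 difference of this ratio was 1.26, against a pooled SD of 0.34. VWF alone stood at 149 and 128 units in HS, against 83.1 and 114 in drug-loaded MNs, and so weighed heavily in the sum. Without VWF the log2 difference was 0.74, and the SD given does not apply to it.

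Lymphatic endothelial markers lay apart between the groups. Genes of the blood endothelial list were not checked for expression in lymphatic vessels, so the lists may share cells. The 4 genes of the 5 listed that were in the table (PROX1, LYVE1, MMRN1 and RELN) were all higher without overlap, as were 26.6% of all tested genes, and their sum was 11.7 and 19.0 units in HS, against 53.8 and 40.1 in drug-loaded MNs. None of the 4 passed an adjusted p of 0.05. Measured against this sum, a comparison added after the values were seen, NOTCH4 stood at 89.0% and 38.4% in HS, against 34.1% and 46.8% in drug-loaded MNs, so the groups overlapped. Markers of macrophages (8 of 8 tested genes with a positive fold change, sums of 132 and 140.1 units in HS, against 313 and 308 in drug-loaded MNs) and of fibroblasts (6 of 6 with a positive fold change, sums of 22996 and 22526 in HS, against 44682 and 48616 in drug-loaded MNs) also lay apart between the groups. In limma none of these genes reached an adjusted p of 0.05, and 64.6% of all tested genes had a positive fold change. The part of these cells in the NOTCH4 difference was not tested.

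NOTCH2 (ENSOCUG00000016565), a receptor of wide expression, stood at 14.3 and 33.7 units in HS, against 32.9 and 33.7 in drug-loaded MNs. HS replicate 1 alone was low, and the other 3 libraries were nearly equal. The means were 24.0 ± 13.7 and 33.3 ± 0.530 (SD, n = 2 each), a log2 difference of 0.58 with an SE of 0.38 (limma adjusted p 0.767). Without HS replicate 1 it was -0.02, and without HS replicate 2 it was 1.17. In the RefSeq genes of the rabbit assembly mOryCun1.1 a long noncoding RNA overlaps NOTCH2, and no other of the 6 members matched there (NOTCH4 was not) overlaps a neighbour.

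Of the ligands, JAG1 (ENSOCUG00000002884), the Jagged ligand found in keratinocytes and vessel walls, stood at 109.6 and 171 units in HS, against 132 and 119 in drug-loaded MNs. The treated libraries lay between the untreated ones. The means were 140.2 ± 43.2 and 125 ± 9.0 (SD, n = 2 each), and the log2 fold change was -0.13 (95% interval -0.75 to 0.49, limma adjusted p 0.936). Against the summed basal keratinocyte markers (6 of 8 in the table, median log2 fold change -0.16) JAG1 stood at 1.26% and 2.72% in HS, against 1.56% and 2.63% in drug-loaded MNs. The replicate 1 libraries were low and the replicate 2 libraries high in both groups, and the log2 difference of 0.13 was within the pooled SD of 0.67. Without HS replicate 2 the fold change of JAG1 itself turned to 0.19.

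DLL4 (ENSOCUG00000010756), the Delta ligand of endothelial tip cells and arteries, was a low gene at 4.50 and 3.31 units in HS, against 2.79 and 4.05 in drug-loaded MNs. Its groups overlapped, with a log2 fold change of -0.15 (95% interval -0.89 to 0.58, limma adjusted p 0.936). Against the blood endothelial markers, DLL4 amounted to 2.18% and 1.55% in HS, against 1.73% and 1.88% in drug-loaded MNs, a log2 difference of -0.03 with a pooled SD of 0.25. Without VWF in the sum this difference was -0.55. DLL4 and NOTCH4, both of endothelial cells, thus had fold changes of opposite sign, but the difference between the genes was not tested, and the sign of DLL4 turned without HS replicate 1 (0.02) or replicate 1 of drug-loaded MNs (0.05).

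HES1 (ENSOCUG00000009363), a transcriptional repressor and the best known target of Notch, stood at 445 and 613 units in HS, against 253 and 243 in drug-loaded MNs. Both treated libraries lay below both untreated ones, and they differed from each other far less than the HS libraries did. The means were 529 ± 119 and 248 ± 7.23 (SD, n = 2 each), so that HS was 2.13 times as high. The log2 fold change was -1.07 (SE 0.24, 95% interval -1.63 to -0.52), with a limma adjusted p of 0.314. Blocking on the replicate number gave a limma adjusted p of 0.00378, although that number is not known to pair the tissues. The block left 1 residual degree of freedom, and with it 241 of the 9348 tested genes passed, against 4 without it. By unadjusted p (0.0024 in limma) HES1 ranked 12 among the genes with a negative fold change. With 1 library left out the log2 fold change ran from -1.30 to -0.84.

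HES1 is expressed in many skin cells, keratinocytes among them, and is also known to respond quickly to stress and serum. Its level was therefore set beside 5 immediate early genes of tissue dissociation (FOS, JUN, EGR1, ATF3 and DUSP1, of 10 listed). All 5 had a negative fold change, with a median of -0.18. DUSP1, a phosphatase induced by stress, had one of -0.50 (limma adjusted p 0.673). It was lower without overlap, as were 11.2% of all tested genes. The summed level of the 5 genes was 13142 and 20232 units in HS, against 12932 and 13713 in drug-loaded MNs. HS replicate 2, the library with the most HES1, was also the highest in this sum. HES1 amounted to 3.39% and 3.03% of the sum in HS, against 1.96% and 1.77% in drug-loaded MNs, a log2 difference of -0.78 with a pooled SD of 0.11. Against the suprabasal keratinocyte markers (4 of 9 in the table, KRT10 the highest, median log2 fold change -0.06), added after the values were seen, HES1 stood at 1.21% and 1.17% in HS, against 0.807% and 0.589% in drug-loaded MNs. The log2 difference of this ratio was -0.79 with a pooled SD of 0.23. Without KRT10 in the sum the log2 difference was -1.10, and the SD given does not apply to it. The groups lay apart on both scales, as they did in HES1 alone, so the ratios in part repeat its values. The part of stress or of keratinocyte share in the HES1 difference was not tested. Whether HES1 differed within a cell type was not tested, since the table holds no values per cell.

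HEY1 (ENSOCUG00000016568), a repressor active in endothelial cells among others, stood at 12.5 and 12.9 units in HS, against 9.97 and 10.2 in drug-loaded MNs. The libraries of each group were nearly equal, and the groups lay apart by a small step. The means were 12.7 ± 0.337 and 10.1 ± 0.164 (SD, n = 2 each), and their log2 difference was -0.30 with an SE of 0.26 (limma adjusted p 0.829). It stayed between -0.33 and -0.28 with 1 library left out. The limma SE draws on all genes and is larger than the spread of these 4 values alone.

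HEYL (ENSOCUG00000000560), a related repressor known from vascular smooth muscle and pericytes, stood at 3.40 and 4.59 units in HS, against 7.78 and 5.25 in drug-loaded MNs. The treated libraries lay above the untreated ones, by a small margin between HS replicate 2 and drug-loaded MNs replicate 2. The means were 3.99 ± 0.847 and 6.51 ± 1.78 (SD, n = 2 each), and their log2 difference was 0.58 with an SE of 0.32 (limma adjusted p 0.709). With 1 library left out it ran from 0.33 to 0.82.

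HEYL was set beside mural markers, the genes of pericytes and smooth muscle. All 7 tested of 10 listed had a positive fold change (64.6% of all tested genes did), with a median of 0.60. None passed an adjusted p of 0.05 in limma, and 4 of the 7 overlapped between the groups. The other 3 were higher without overlap, as were 26.6% of all tested genes. As a list the 7 markers overlapped too, since their sum was 400.2 and 743 units in HS, against 918 and 726 in drug-loaded MNs. HS replicate 1 was the low library of this sum. HEYL amounted to 0.848% and 0.618% of it in HS, against 0.847% and 0.723% in drug-loaded MNs, a log2 difference of 0.11 with a pooled SD of 0.26. On this scale the groups overlapped. Relative to HEY1, HEYL stood at 27.3% and 35.5% in HS, against 78.0% and 51.5% in drug-loaded MNs, an order already fixed by HEYL being higher and HEY1 lower in both treated libraries.

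**Figure D2:**
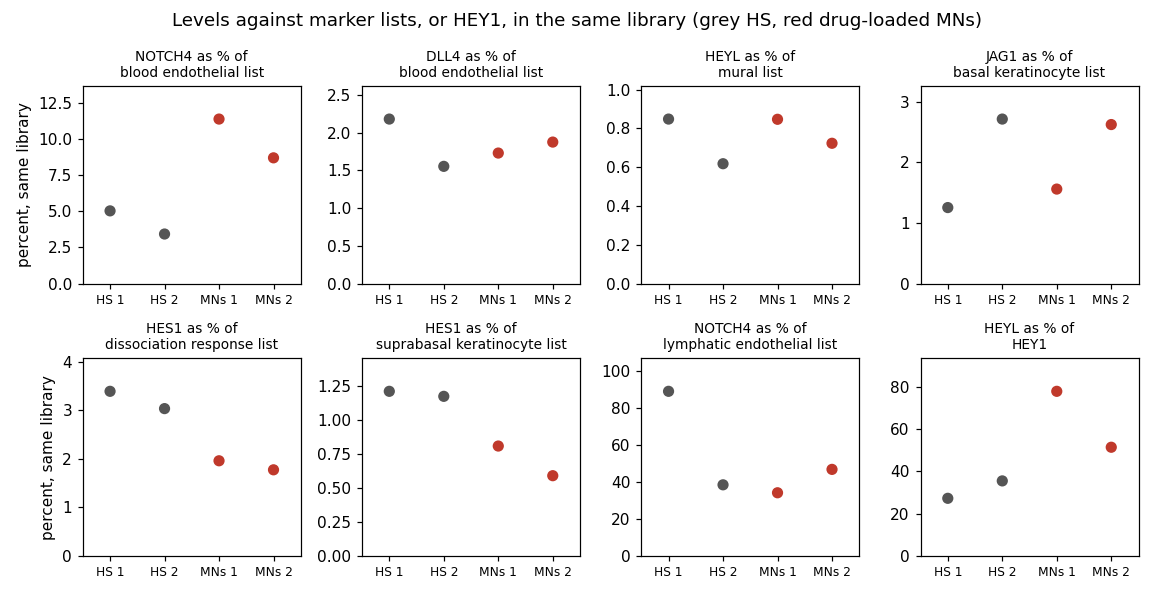
Level of a Notch gene as a percentage of the summed marker list named above each panel, or of HEY1, in the same library (y axes from 0, grey HS, red drug-loaded MNs). NOTCH4 against blood endothelial markers (VWF included) and HES1 against both of its lists lie apart between the groups. Another 4 ratios overlap, while the order of HEYL to HEY1 is fixed by the values of the pair of genes themselves.

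To place these genes in the pathway around them, 9 lists by role, which include the 7 genes, were read from the same fit. Of 74 genes listed, 39 were in the table and 36 were tested. None passed an adjusted p of 0.05 in limma, and 3 (HES1, NOTCH4 and DNER) had an unadjusted p under 0.05, against 809 (8.65%) of all tested genes. A positive fold change was found in 23 of the 36 (63.9%), against 64.6% of all tested genes, and the median was 0.17 against 0.12. Under median ratio scaling 20 of the 36 were higher, with a median of 0.03 against -0.01. An absolute log2 fold change over 1 was found in 2 of the 36 (HES1 and NOTCH4), against 316 (3.38%) of all tested genes. NOTCH4 stood at 0.87 with median ratio scaling and at 0.81 with quantile normalization. HES1 and NOTCH4 belong to the 7, so the 29 tested genes outside the 7 were also read alone. Of the 29, 1 (DNER, 3.45%) had an unadjusted limma p under 0.05, and 0 had an absolute log2 fold change over 1. A positive fold change was found in 20 of the 29 (69.0%), with a median of 0.19.

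The steps between ligand and target are given by role. Of the 6 tested genes of receptor cleavage, 3 were higher and 3 lower, with a median log2 fold change of 0.04 that turned to -0.10 under median ratio scaling (-0.08 under quantile normalization). They ranged from -0.27 in NCSTN, a subunit of gamma-secretase, to 0.38 in ADAM10, the protease of the cut outside the membrane. The nuclear activation complex had 2 of 4 higher and a median of 0.06 (-0.09 under median ratio scaling and -0.02 to 0.27 with 1 library left out). RBPJ, to which the cleaved receptor binds, stood at 66.7 and 83.7 units in HS, against 86.8 and 85.3 in drug-loaded MNs, a log2 difference of 0.20 (limma adjusted p 0.877). All 6 tested co-repressors had a positive fold change, from 0.08 in CIR1 to 0.28 in KDM5A, but 5 of 6 did under either scaling. Of the receptor trafficking and degradation list, 5 of 7 were higher, with a median of 0.28, and 4 of 7 were under either scaling. Both tested genes of ligand endocytosis (MIB1 and NEURL1B) had a positive fold change with overlapping groups, and their median of 0.24 turned to -0.09 without HS replicate 1. The 1 tested gene of receptor glycosylation (POGLUT1) was higher without overlap, as were 26.6% of all tested genes.

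Ligands and targets other than those above were few. DNER, a transmembrane protein reported to act as a Notch ligand in nerve tissue, was low, at 1.24 and 1.11 units in HS, against 1.99 and 5.04 in drug-loaded MNs. Its log2 fold change was 0.97 (limma adjusted p 0.541), and the treated libraries differed from each other by more than the gap to HS. DLK2, a Delta-like protein, stood at 14.9 and 8.95 units in HS, against 11.9 and 6.57 in drug-loaded MNs and overlapped. HES7, a target known from the segmentation of the embryo, had a log2 fold change of -0.11. HES2 and 2 genes of ligand endocytosis (NEURL1 and NEURL3) were below the filter on low values and were not tested.

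The other pathway genes with the smallest unadjusted p were AAK1, a kinase of clathrin adaptors and NUMB (log2 fold change 0.74, limma adjusted p 0.605), the ubiquitin ligases DTX4 (0.55) and DTX3L (0.48), POGLUT1, which adds glucose to the receptor (0.39), and ADAM10 (0.38). All were higher in drug-loaded MNs without overlap. Such calls are common upward in these libraries, as the share given above shows. HS replicate 1 was the lowest library in 18 of the 29 tested pathway genes outside the main 7 (62.1%), against 44.5% of all tested genes.

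**Figure D3:**
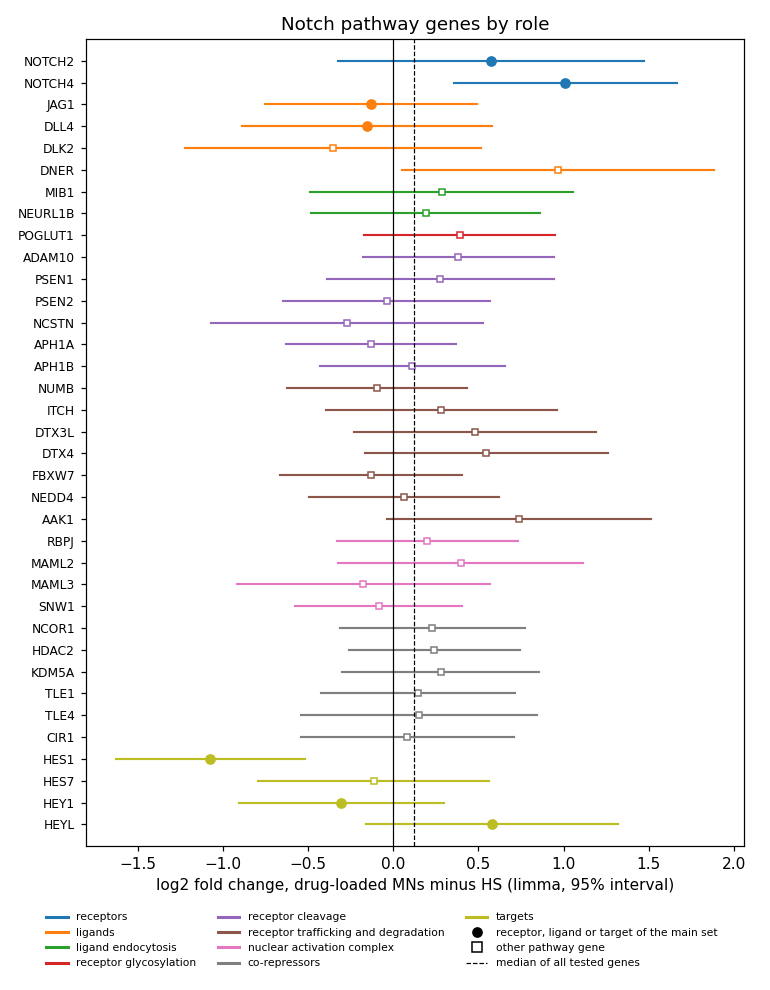
Log2 fold change (drug-loaded MNs minus HS, x axis) with limma's 95% interval for the 36 tested Notch pathway genes, coloured by role, with filled circles for the 7 main genes and a dashed line at the median of all tested genes (0.12). HES1, NOTCH4 and DNER are the genes whose interval leaves out 0.

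The 14 processing alternatives bore unevenly on the 7 genes. HES1 and NOTCH4 kept their direction in all 14, and each had an unadjusted limma p under 0.05 wherever all 4 libraries were used. Their log2 fold changes ran from -1.30 to -0.84 for HES1 and from 0.78 to 1.24 for NOTCH4. HEY1 and HEYL also kept their direction in all 14, with no unadjusted limma p under 0.05 where all 4 libraries were used. Much of this was fixed beforehand. Filter, prior and block settings leave a fold change as it is. Neither a pseudocount nor leaving out 1 library can turn the sign of a gene whose groups do not overlap. Only a change of scaling could have turned it. Median ratio scaling shifted the median over all genes from 0.12 to -0.01, and under it HES1 stood at -1.22, NOTCH4 at 0.87, HEY1 at -0.44 and HEYL at 0.46. NOTCH2, JAG1 and DLL4 changed sign when single libraries were left out. Alternatives of the same 4 libraries are not independent of each other.

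**Figure D4:**
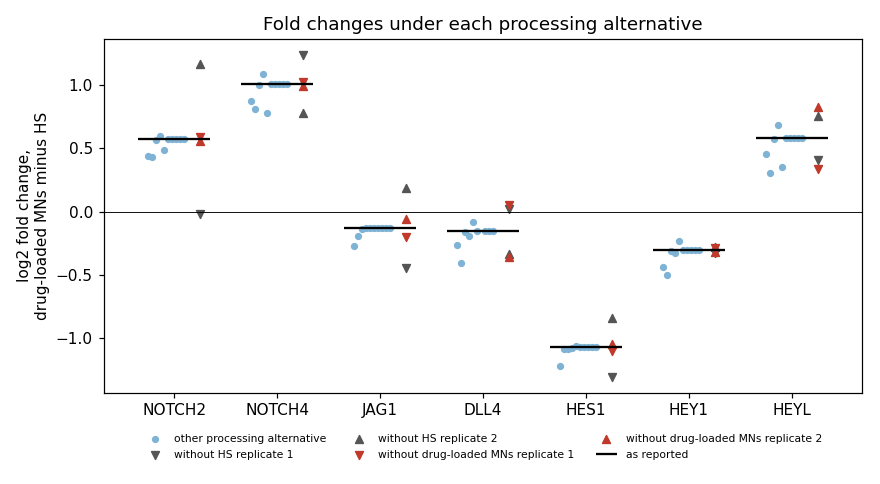
Log2 fold change (drug-loaded MNs minus HS, y axis) of each of the 7 Notch genes as reported (black line), with 1 library left out (triangles) and under the other processing alternatives (blue points). HES1 and HEY1 stay below 0 and NOTCH4 and HEYL above it throughout, while NOTCH2, JAG1 and DLL4 cross 0 when a library is left out.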

How the data were processed

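Single-cell libraries (10x Genomics) of 2 HS and 2 drug-loaded MNs tissues were measured. The submitters' processing notes name Cell Ranger 2.1.1 and the build mm10, which is a mouse build, although the genes carry rabbit Ensembl identifiers, and the study adds Seurat, a limit on mitochondrial reads per cell and a batch correction. How doublets were treated is not given in the sources used here and could not be checked in a table without cells. The rabbit build and the way cells were combined are not given in the sources used here. The table deposited by the authors is named for FPKM, but each column summed to 10000, so its values were treated as relative expression without length correction. Low values were not whole multiples of the smallest (18.6% to 21.7% within 0.1 of one), so reads were not recovered and no count model was used.

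Columns were rescaled to 1000000, the 9348 genes averaging 1 unit or more were kept, and log2(value + 1) was fitted in limma 3.58.1 (R 4.3.3, lmFit and eBayes with trend) on all 4 libraries. P-values were two-sided and adjusted by Benjamini-Hochberg over all tested genes. An exact permutation test of 2 against 2 cannot give less than 0.333 and was not used. The groups came from different rabbits, and the study calls the samples of a group biologically independent without naming the animal of each tissue, so p-values measure the spread between these libraries. The script was tested on simulated data. Named genes were the members, then pathway genes past the threshold, then the 6 with the smallest unadjusted p. Members and lists were chosen with earlier results of these data known. Of 14 marker lists, those not discussed above (mast, Schwann, T cell, melanocyte, chondrocyte and cycling) had medians of 0.54, 0.62, 1.08, 0.05 (-0.09 under median ratio scaling), -0.28 and 0.84. The T cell value is that of 1 gene (CD2). No tested gene of the Schwann, melanocyte, chondrocyte or cycling list lay apart between the groups. Scaling, pseudocount, filter, prior, block and library left out were varied.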

Additional observations from a re-analysis of the deposited data

How the results depend on the processing

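Count tests were not run, because whole reads were not recovered, and DLL4 was not tested where the minimum mean was 5. Where 4 genes passed the threshold as reported, 1 did without trend and 0 did with quantile normalization, median ratio scaling, no filter, a pseudocount of 5 or the total without abundant genes. At an unadjusted p under 0.05 the direction also shifted, since median ratio scaling took the portion of genes that were higher from 83.9% to 64.1% and quantile normalization took it to 59.0%. With 1 library left out, genes past the threshold numbered from 0 (without HS replicate 1) to 75 (without drug-loaded MNs replicate 2). The count was 3 without HS replicate 2 and 48 when drug-loaded MNs replicate 1 was left out. The lone library of a group then takes its spread from the other group. The count of Notch members past the threshold was 0 in every alternative but the block. With the replicate number as a block it was 1 (HES1, log2 fold change -1.07, limma adjusted p 0.00378), and 241 genes passed in all. The numbers are not known to pair the tissues, and the block left 1 residual degree of freedom. Deviations of same-numbered libraries correlated at 0.22 across genes. Melanocyte marker sums for replicates 1 and 2 were 333 and 137 without treatment, and 305 and 142 with it. Replicate 1 was also higher in both groups for the cycling, Schwann, chondrocyte and basal keratinocyte lists. Replicate 2 was higher in both for the suprabasal, blood endothelial and dissociation lists. The order differed between the groups for the lymphatic, mural, fibroblast, macrophage, mast and T cell lists. What the replicate number stands for was not tested. Adjusted p over the 14 alternatives ran from 0.00378 to 0.484 for HES1 and from 0.0959 to 0.69 for NOTCH4.

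Leaving out 1 library turned the sign of NOTCH2 (range -0.0159 to 1.17), JAG1 (-0.45 to 0.19) and DLL4 (-0.36 to 0.0526, with 0.0228 without HS replicate 1). It moved the role medians to between -0.0744 and 0.0057 for ligands, -0.0931 and 0.57 for ligand endocytosis, -0.0177 and 0.27 for the nuclear activation complex, 0.0031 and 0.36 for co-repressors, 0.28 and 0.50 for receptor glycosylation, 0.61 and 0.97 for receptors, -0.0392 and 0.16 for receptor cleavage, -0.0341 and 0.50 for receptor trafficking and degradation, -0.29 and -0.13 for targets and 0.0080 and 0.35 for the whole pathway. Under median ratio scaling and quantile normalization the medians were -0.27 and -0.30 for ligands, 0.25 and 0.27 for receptor glycosylation, -0.10 and -0.0793 for receptor cleavage, -0.34 and -0.43 for targets, and 0.0314 and 0.0388 for the whole pathway. The ligand median was -0.24 with a minimum mean of 5, and the target median -0.11 without filter, where other genes were tested. Without VWF in the blood endothelial sum, the log2 difference was 0.74 for NOTCH4 and -0.55 for DLL4. The other 91 of 105 role medians and ratios, libraries left out aside, moved by less than 1 SD. The cause of these shifts was not tested. Depth was unknown, so what it limits was not measured.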
